A study of Mus musculus with 9 samples.

Results

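The miRNAs described here are 7 mature miRNAs of the miR-10, miR-99/100 and miR-125 groups: miR-10a-5p, miR-10b-5p, miR-99a-5p, miR-99b-5p, miR-100-5p, miR-125a-5p and miR-125b-5p. They were taken by name, with the copies of miR-125b-5p merged, from 375 named miRNA starts in the deposited small RNA-seq data. The rule that chose them used names, not a threshold on a measured value. Yet the study lists the named starts as highly expressed, at 100 or more reads per 1000000 mapped (RPMM) in some library. In the libraries used here, miR-10b-5p and miR-100-5p passed 100 RPMM only in the TruSeq library of liver, and miR-10a-5p only in liver. Among these libraries, only liver levels put these miRNAs on that list. The 9 libraries analysed here comprise 7 libraries of MIN6 cells, a mouse insulinoma line that resembles beta cells, and 2 libraries of mouse liver. The study asked how the method of library preparation changes the miRNA levels that are measured.

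MIN6 cells were grown in DMEM with high glucose (25 mM) and 10% heat-inactivated fetal bovine serum, and received no treatment that the labels name. Of the MIN6 libraries, 3 were made with the Illumina TruSeq kit and sequenced on the GAIIx (TS-GAIIx), 3 with the Illumina v1.5 kit on the GAIIx (v1.5-GAIIx), and 1 with the Bioo Scientific NEXTflex V2 kit on the HiSeq (NF-HiSeq). The liver came from a single female C57BL/6J mouse, 9 weeks old when it was bought, which was given saline by tail vein 7 days before an overnight fast and tissue collection. RNA of that liver was used for both a TruSeq library (TS-HiSeq-ML) and a NEXTflex library (NF-HiSeq-ML), each sequenced on the HiSeq. The study does not name the sequencing facility or date of the liver libraries. NF-HiSeq was made at another facility and at a later date than the GAIIx libraries. Per the study it was made from MIN6 RNA that had also served for a TruSeq library on the HiSeq, which was not analysed here, so RNA, platform and facility differ along with the kit when it is compared with the GAIIx libraries. RNA was isolated with a Norgen kit or with TRIzol, depending on the facility. The study calls the 3 libraries of a kit biological replicates, and the labels do not say whether they came from separate cultures. The p-values here measure the spread between these libraries. With 1 liver, and with 1 library for each liver and NEXTflex group, those comparisons have no replicate check.

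A miRNA pairs with its targets mainly through its seed, bases 2 to 8 from the 5′ end, so miRNAs with the same seed are expected to share many targets. Genes of the miR-10 family lie inside the Hox clusters, which pattern the body axis, and miR-99, let-7 and miR-125 genes form an old cluster of which the mouse has several copies. miR-125 is known from blood formation and neural differentiation, and miR-10b from studies of tumor spread. miR-100 and miR-99 are known for acting on mTOR signaling.

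The mature sequences are shown because all comparisons below are between near-identical paralogs. They are given 5′ to 3′ from RefSeq (GRCm38.p6), in which all 7 names were found, with the seed in capitals.
miR-10a-5p: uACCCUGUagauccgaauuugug
miR-10b-5p: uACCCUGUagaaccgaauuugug
miR-99a-5p: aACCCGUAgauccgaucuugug
miR-99b-5p: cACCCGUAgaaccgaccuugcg
miR-100-5p: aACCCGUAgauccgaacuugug
miR-125a-5p: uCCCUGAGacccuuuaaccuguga
miR-125b-5p: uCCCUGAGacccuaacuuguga
The members of each group had the same seed. With positions counted from 1 at the 5′ end, miR-10a-5p and miR-10b-5p differed by 1 base (U12A, miR-10a-5p first). miR-99a-5p and miR-100-5p also differed by 1 base (U16A, miR-99a-5p first). miR-99a-5p and miR-99b-5p differed by 4 bases, which included the first base (A1C, U11A, U16C and U21C). miR-125a-5p has 24 nt and miR-125b-5p has 22 nt, and the first base at which they differ is position 14.

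All genes of the group are on the plus strand of GRCm38. The mature miR-10a-5p lies at chr11:96317186-96317208, between genes of the Hoxb cluster, 1059 nt from the nearest coding gene in GENCODE M21, Hoxb4, and in no other annotated gene. miR-10b-5p lies at chr2:74726074-74726096, inside the gene models of Hoxd3 and Hoxd4 and in no exon of them. miR-99a-5p (chr16:77598940-77598961) and the miR-125b-2 copy of miR-125b-5p (chr16:77646279-77646300) lie in introns of the noncoding gene Mir99ahg, with let-7c-1 between them. miR-100-5p (chr9:41531437-41531458) and the miR-125b-1 copy (chr9:41581940-41581961) lie within the noncoding gene 3110039I08Rik, with let-7a-2 between them, outside its exons. miR-100-5p also overlaps an exon of the antisense transcript Gm48742, and the miR-125b-1 copy an exon of Gm28119. miR-99b-5p (chr17:17830194-17830215) and miR-125a-5p (chr17:17830817-17830840) lie in the gene body of Spaca6, with let-7e between them, outside the annotated exons. In the files, which use mm9, the starts of miR-99b-5p and miR-125a-5p were 623 nt apart, those of miR-99a-5p and miR-125b-2-5p 47339 nt, and those of miR-100-5p and miR-125b-1-5p 50503 nt. Each distance equalled that in GRCm38. No mismatch letter in the files at a member's start was the RefSeq base of its position, so the letters were read as bases of the reads.

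Depth was 6923460 to 13158853 expected counts in the GAIIx libraries, 25638871 in NF-HiSeq, 17875869 in TS-HiSeq-ML and 14426009 in NF-HiSeq-ML. The NEXTflex libraries stood apart in the variety of their alignments, with 251879 distinct alignments in NF-HiSeq and 179918 in NF-HiSeq-ML, against 551421 to 2569547 in the other 7 libraries. Levels are normalised to the mapped reads of each library (RPMM, reads per 1000000 mapped). The beta-cell miRNA miR-375-3p was at 64950 to 186331 RPMM in the MIN6 libraries and at 26.7 and 40 RPMM in liver. The hepatocyte miRNA miR-122-5p was at 0.15 to 2.38 RPMM in the 6 GAIIx libraries, at 127.7 RPMM in NF-HiSeq, and at 17244 (TS-HiSeq-ML) and 532452 RPMM (NF-HiSeq-ML) in liver. Of the other cell type markers, the endothelial miR-126-3p was at 12.6 ± 1.15 RPMM by TruSeq, 200.3 ± 8.56 RPMM by v1.5 (SD, n = 3 each) and 70.01 RPMM by NEXTflex in MIN6 cells. In liver it was at 462.9 and 1884 RPMM and the red-cell miR-451 at 225.3 and 51.6 RPMM in the TruSeq and NEXTflex liver libraries, and 2 blood-cell markers (miR-144-3p and miR-223-3p) were not placed here.

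Together the 7 miRNAs took 1.3% to 1.36% of mapped reads in the TS-GAIIx libraries, 0.592% to 0.645% in v1.5-GAIIx, 0.78% in NF-HiSeq, 2.66% in TS-HiSeq-ML and 0.266% in NF-HiSeq-ML. In MIN6 cells miR-125a-5p and miR-99b-5p, which come from the same cluster on chromosome 17, were the highest. By TruSeq, miR-125a-5p was above miR-99b-5p in all 3 libraries, and by v1.5 miR-99b-5p was above miR-125a-5p in all 3. miR-100-5p was the lowest in every MIN6 library. In TruSeq liver the order was led by miR-10a-5p, and in NEXTflex liver by miR-125b-5p and miR-125a-5p, which differed little (706.6 and 689.8 RPMM).

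**Figure D1:**
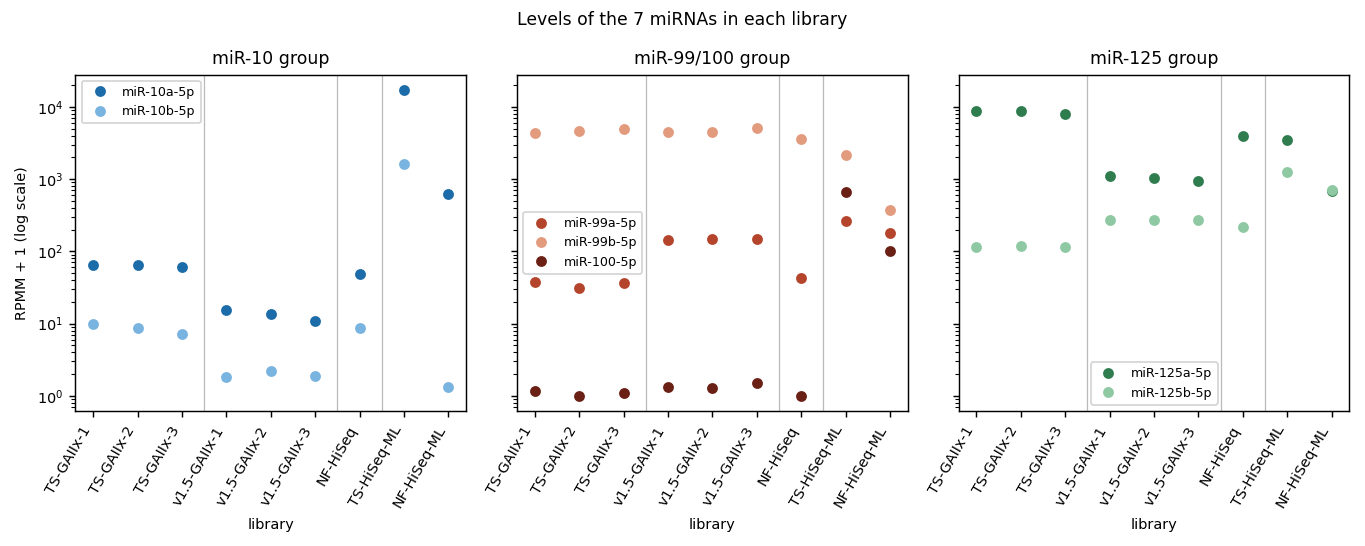
Level of each miRNA in each of the 9 libraries, as RPMM + 1 on a log axis, with 1 point per library and 1 panel per seed group; vertical lines separate the groups of libraries. miR-100-5p lies at the bottom of its panel in all 7 MIN6 libraries and at 670.2 and 98.97 RPMM in liver, and miR-10b-5p drops to 0.313 RPMM in NF-HiSeq-ML.

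In MIN6 cells, changing the kit from TruSeq to v1.5 went with different directions among paralogs of the same seed. miR-99a-5p was higher by v1.5 while the libraries of miR-99b-5p overlapped, and miR-125b-5p was higher while miR-125a-5p was lower. Both miR-10 members were lower by v1.5. Of the 7 miRNAs, 6 passed the filter of at least 10 counts in at least 3 of the 6 libraries, and 5 of these 6 were called (edgeR, quasi-likelihood, p-values adjusted by Benjamini-Hochberg across 355 miRNA starts), 2 higher and 3 lower by v1.5. Of all 355 starts, 89.9% were called, 51.5% higher by v1.5 and 38.3% higher by TruSeq, so a called member was the usual case and not particular to the group. miR-10b-5p had 9 to 14 counts in the v1.5 libraries and passed the filter mainly through its TruSeq libraries. miR-100-5p, with 0 to 5 counts, was not tested.

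Mature miR-125a-5p was at 8748, 8686 and 7843 RPMM in the TS-GAIIx libraries and at 1096, 1032 and 942.1 RPMM in the v1.5 libraries. All TruSeq libraries were thus far above all v1.5 libraries, and the means of 8425 ± 506 and 1023 ± 77.3 RPMM (SD, n = 3 each) differed 8.23-fold. The log2 difference, v1.5 minus TruSeq, was -3.04 ± 0.07 (SE, edgeR adjusted p = 1.21e-11). Its paralog miR-125b-5p moved the other way. It was at 114.7, 118.3 and 114.4 RPMM by TruSeq and at 272.4, 267.5 and 271.9 RPMM by v1.5. The means of 115.8 ± 2.19 and 270.6 ± 2.71 RPMM differed 2.34-fold, a log2 difference of 1.23 ± 0.05 (edgeR adjusted p = 1.11e-09).

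In the miR-99/100 group, miR-99a-5p was at 36.6, 29.6 and 35.5 RPMM by TruSeq and at 143.3, 147.6 and 145.8 RPMM by v1.5. The groups did not overlap, and the log2 difference was 2.10 ± 0.08 (SE, edgeR adjusted p = 4.06e-10), or 4.29-fold. miR-99b-5p was at 4385, 4686 and 4900 RPMM by TruSeq and at 4515, 4462 and 5074 RPMM by v1.5, so the groups overlapped. Its log2 difference of 0.01 ± 0.06 was not called (edgeR adjusted p = 0.909). The median log2 difference of all starts was 0.229 with mapped reads as library sizes, -0.145 with TMM factors and -0.101 with DESeq2 size factors. With TMM factors and with DESeq2 size factors miR-99b-5p was called lower by v1.5 (log2 differences of -0.37 and -0.32, edgeR adjusted p = 3.98e-05 and 0.00072). With the sum of named miRNAs as library size, where the median of all starts was 0.0943, it was also called lower (-0.13, edgeR adjusted p = 0.027). The direction of the other 5 tested members was the same under every scaling.

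The miR-10 group was lower by v1.5 as a whole. miR-10a-5p was at 62.9, 63.5 and 60.4 RPMM by TruSeq and at 14.2, 12.7 and 9.92 RPMM by v1.5, without overlap. Its log2 difference was -2.32 ± 0.11 (SE, edgeR adjusted p = 3.56e-09), a 5.07-fold change of the means. miR-10b-5p was at 8.73, 7.74 and 6.19 RPMM by TruSeq and at 0.833, 1.17 and 0.866 RPMM by v1.5. Its log2 difference was -2.94 ± 0.25 (edgeR adjusted p = 7.12e-07).

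miR-100-5p was barely seen in MIN6 cells. It had 1, 0 and 1 counts in the TS-GAIIx libraries and 4, 3.5 and 5 counts in the v1.5 libraries, that is 0 to 0.15 RPMM and 0.293 to 0.481 RPMM. In NF-HiSeq it had 0 counts, which allows a level of up to 0.117 RPMM (3 counts, counting error only). The groups did not overlap, as for 90.1% of the 355 starts tested, but all values were within a few counts. Of the v1.5 counts, 2, 1.5 and 1.5 carried a mismatch at base 16, the base that separates miR-100-5p from miR-99a-5p. Without a filter on low counts, edgeR gave an adjusted p of 0.0531 for miR-100-5p.

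**Figure D2:**
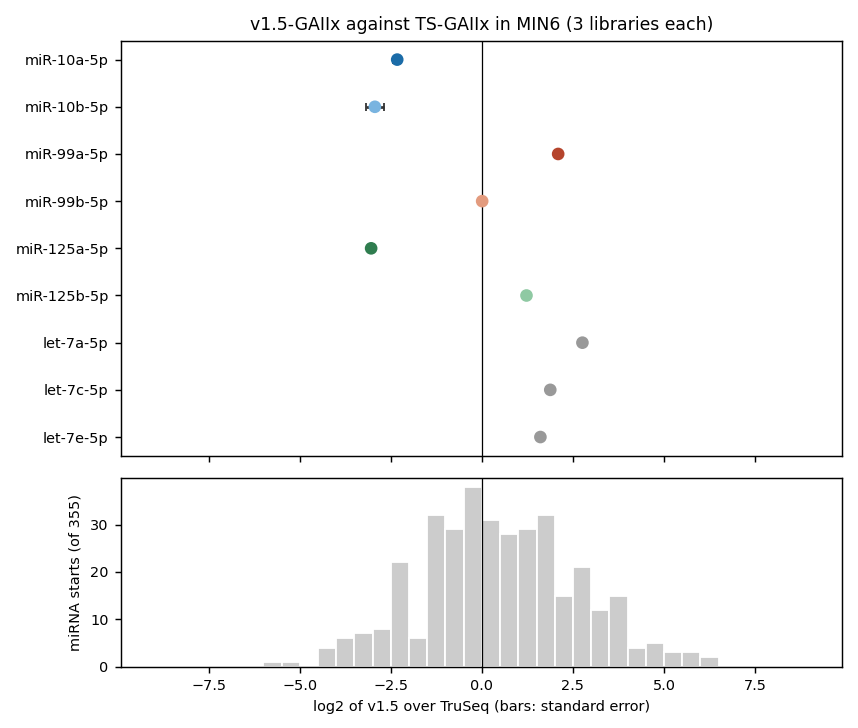
Log2 difference between 3 v1.5-GAIIx and 3 TS-GAIIx libraries with its standard error (bars, mostly smaller than the points) for the 6 tested members and the let-7 miRNAs of the same clusters, above a histogram of all 355 starts tested. miR-125a-5p (-3.04) and miR-125b-5p (1.23) lie on opposite sides of 0, and miR-99b-5p lies at 0.01.

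The ratio of 2 paralogs within a library does not depend on the library size. Of the 5 pairs, 3 had counts in all 6 libraries, and in none of these 3 did the order of the paralogs differ between v1.5 and TruSeq. The ratio of miR-125a-5p to miR-125b-5p was 76.3, 73.4 and 68.6 by TruSeq and 4.02, 3.86 and 3.46 by v1.5, so miR-125a-5p was in excess by both kits but 19.3-fold less so by v1.5. On the log2 scale the mean ratios were 6.18 ± 0.08 and 1.92 ± 0.11 (SD). For miR-99a-5p over miR-99b-5p the mean log2 ratio was -7.11 ± 0.20 by TruSeq and -5.01 ± 0.10 by v1.5, a change of 2.1. For miR-10a-5p over miR-10b-5p it was 3.06 ± 0.22 and 3.68 ± 0.36. The 3 ratios by TruSeq (7.21 to 9.77) lay below those by v1.5 (10.9 to 17.1), and the direction of this change was opposite after 1 RPMM was added to both (-0.14 on the log2 scale). For each of the 3 pairs the exact permutation test of 3 against 3 libraries, two-sided, gave p = 0.1, the smallest it can give, and 0.1 after adjustment over the pairs.

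As shares of their group, miR-125b-5p, miR-99a-5p and miR-100-5p were largest in liver. miR-125b-5p made up 1.36% ± 0.07 of the miR-125 group by TruSeq and 21% ± 1.29 by v1.5 (SD, n = 3 each), 5.2% in NF-HiSeq, 26.6% in TS-HiSeq-ML and 50.6% in NF-HiSeq-ML. miR-99a-5p made up 0.725% ± 0.10 by TruSeq and 3.02% ± 0.21 by v1.5 of the miR-99/100 group in MIN6 cells, against 8.47% in TS-HiSeq-ML and 27.5% in NF-HiSeq-ML. miR-100-5p made up 21.5% and 15.1% of that group in the TruSeq and NEXTflex liver libraries. Among the miR-10 group, miR-10b-5p held 9.29% to 12.2% in the TS-GAIIx libraries, 5.53% to 8.43% in v1.5-GAIIx, 13.8% in NF-HiSeq and 8.54% in TS-HiSeq-ML, but 0.0512% in NF-HiSeq-ML.

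**Figure D3:**
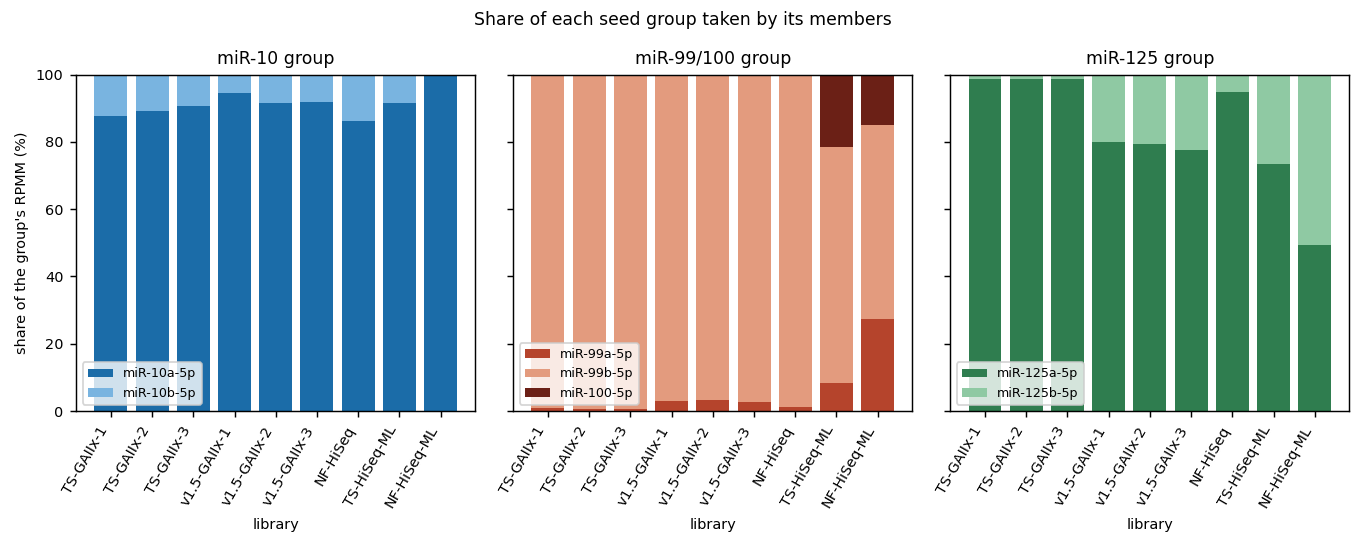
Share of the summed RPMM of each seed group taken by each of its members (percent, stacked bars from 0 to 100), for each of the 9 libraries. miR-125b-5p goes from about 1.36% of its group in TS-GAIIx to 50.6% in NF-HiSeq-ML, and miR-100-5p is visible only in the 2 liver bars.

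The other arm of each hairpin was located by its distance from the 5p arm. Unlike the 5p arms, the 3p arms of the 2 copies of miR-125b differ in sequence. miR-125b-2-3p, from the chromosome 16 cluster, was at 31.3 to 35.8 RPMM in the TS-GAIIx libraries and at 24.8 to 26.4 RPMM in the v1.5 libraries. In NF-HiSeq it had 0 counts at its annotated start and 19.6 RPMM within 2 nt of it, and in liver it was at 55.1 RPMM by TruSeq and 26.3 RPMM by NEXTflex. miR-125b-1-3p, from the chromosome 9 cluster that also holds miR-100, had 0 counts in all 7 MIN6 libraries, also within 2 nt of its start, and 10.7 RPMM in TS-HiSeq-ML. It had 0 counts in NF-HiSeq-ML too. miR-100-3p had 0 counts at its annotated start in all 9 libraries.

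The balance of the arms also differed between the kits. miR-125a-3p was at 22.8 ± 0.72 RPMM by TruSeq and 38.3 ± 2.11 RPMM by v1.5 (SD, n = 3 each), so it was higher by v1.5 where its 5p arm was lower. The ratio of the 5p to the 3p arm of Mir125a was 335 to 398 by TruSeq and 23.9 to 28.8 by v1.5. For Mir99b the ratio was 66.5 to 75.2 and 91.3 to 96.9. For Mir125b-2, with the 5p counts as the authors divided them between the copies, it was 1.6 to 1.89 and 5.07 to 5.48, and for Mir99a, with 6.5 to 28 counts of the 3p arm, 20.4 to 31.2 and 62.9 to 126. In each of these 4 hairpins the groups did not overlap, which was also so for the levels of 90.1% of all starts tested, and the exact permutation test gave its smallest p of 0.1 (adjusted p = 0.1 over the 4). In liver the ratio for Mir99b was 181 by TruSeq and 9.73 by NEXTflex, and that for Mir10a was 1482 and 30.9. For Mir125b-2 it was 11.3 by TruSeq and 13.4 by NEXTflex, close to each other. The 3p arms of Mir125a and Mir99a had 0 counts by NEXTflex, where the TruSeq ratios were 1086 and 26.4, so no ratio could be formed. miR-10b-3p had 1 count in TS-HiSeq-ML and 0 in the other 8 libraries.

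In MIN6 cells the NEXTflex library lay near TruSeq for most members. After 1 RPMM was added to each group mean, 0 of the 6 members with at least 10 counts in a library were more than 5-fold different from TruSeq, against 35.2% of 361 starts. miR-10b-5p, at 7.69 RPMM, was within the range of the TruSeq libraries, and miR-10a-5p, at 47.9 RPMM, was 1.29-fold below their mean. miR-125a-5p, at 3928 RPMM, was 2.14-fold below, and miR-125b-5p, at 215.5 RPMM, was 1.85-fold above. miR-99a-5p was 1.24-fold above and miR-99b-5p 1.31-fold below. With exact alignments alone, miR-99a-5p was below TruSeq (log2 ratio -0.11, against 0.31 with all alignments). Against v1.5, 0 of the same 6 members were more than 5-fold different, against 38.2% of 359 starts. miR-10b-5p (4.44-fold), miR-125a-5p (3.84-fold) and miR-10a-5p (3.68-fold) were higher by NEXTflex, and miR-99a-5p was lower (3.39-fold). The value for miR-10b-5p rests on the added 1 RPMM: its log2 ratio was 2.15, against 2.88 with 0.1 RPMM added, which put it past 5-fold, and 1.09 with 5 RPMM. Both comparisons use the same NEXTflex library, and miR-7a-5p alone had 248933 RPMM in it, against 781.7 to 1015 RPMM by TruSeq. When miR-122-5p, miR-7a-5p and miR-375-3p were left out of the library sizes, 2 members passed 5-fold against v1.5, where 34.3% of the 359 starts did, miR-10b-5p (5.96-fold) and miR-125a-5p (5.12-fold).

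In liver the 2 kits were applied to the same RNA, and every member was lower by NEXTflex, although miR-99a-5p and miR-125b-5p were higher with the other library sizes given below. With 1 library per kit there is no test. miR-10b-5p showed the widest gap, with 26414.5 counts (1602 RPMM) by TruSeq and 4.5 counts (0.313 RPMM, 95% Poisson interval 0.0938 to 0.762) by NEXTflex, or 1221-fold after 1 RPMM was added. This fold rests on the added value: the log2 ratio was -10.25 with 1 RPMM added, -11.92 with 0.1 RPMM and -8.24 with 5 RPMM. miR-10a-5p, which differs by 1 base, was at 17162 and 610.1 RPMM, or 28.1-fold lower by NEXTflex. Their ratio was 10.7 by TruSeq and 1951 by NEXTflex, the latter on 4.5 counts of miR-10b-5p, of which 3.5 had a mismatch at base 12, where the paralogs differ, and 1 was exact. miR-100-5p was 6.71-fold lower (670.2 and 98.97 RPMM), miR-99b-5p 5.78-fold lower (2184 and 376.8 RPMM) and miR-125a-5p 5.05-fold lower (3490 and 689.8 RPMM), the last just past the 5-fold limit. miR-125b-5p (1262 and 706.6 RPMM, 1.78-fold) and miR-99a-5p (264.2 and 180.4 RPMM, 1.46-fold) were within 5-fold. Thus 5 of the 7 were more than 5-fold different, all lower by NEXTflex, against 37.4% of 310 starts in either direction and 28.1% that were lower, and the median log2 ratio of all these starts was -1.06. Of these 5, miR-10b-5p and miR-100-5p passed 100 RPMM, the limit of the study's list, only in TruSeq liver.

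The hepatocyte miRNA miR-122-5p was at 17244 RPMM by TruSeq and 532452 RPMM by NEXTflex, and the members were therefore also scaled without it. When miR-122-5p, miR-7a-5p and miR-375-3p were left out of the library sizes, 2 of the 7 members stayed past 5-fold, against 37.7% of the 310 starts under that scaling, whose median log2 ratio was then -0.539. The ratios of NEXTflex to TruSeq were 0.0749 for miR-10a-5p and 0.00102 for miR-10b-5p. Those of miR-99b-5p, miR-100-5p and miR-125a-5p were 0.364, 0.312 and 0.416. Those of miR-99a-5p (1.44) and miR-125b-5p (1.18) passed to the other side of 1. With the sum of named miRNAs as library size the gaps were wider, with log2 ratios of -3.31 for miR-99b-5p, -3.53 for miR-100-5p, -3.11 for miR-125a-5p, -1.61 for miR-125b-5p and -1.32 for miR-99a-5p, against -2.53, -2.75, -2.34, -0.84 and -0.55 with mapped reads. With exact alignments alone, miR-99a-5p was at -1.6 and miR-100-5p at -3.61. Over all processing alternatives, the log2 ratio ran from -5.59 to -3.74 for miR-10a-5p and from -11.92 to -8.24 for miR-10b-5p.

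Compared with MIN6 cells, liver had far more miR-10, miR-100 and miR-125b and less miR-99b and miR-125a by TruSeq. Fewer cells of a type and less RNA per cell cannot be told apart in such bulk samples, and tissue and platform differ together. Facility may differ too, but is not named for the liver libraries. By TruSeq, 5 of the 7 members were more than 5-fold different, all higher in liver, against 69.3% of 371 starts in either direction and 19.9% that were higher. The median log2 ratio of these starts was -2.22. Of the 5 members, miR-10a-5p, miR-10b-5p and miR-100-5p passed 100 RPMM, the limit of the study's list, only in liver. miR-10a-5p was 271-fold higher, miR-10b-5p 187-fold, miR-125b-5p 10.8-fold and miR-99a-5p 7.59-fold. miR-100-5p had 2 counts over the 3 TS-GAIIx libraries, and its level in liver was 8556-fold that pooled level, with a 95% Poisson interval of 2368 to 70647. miR-99b-5p and miR-125a-5p, the chromosome 17 pair, were 2.13-fold and 2.41-fold lower in liver.

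By NEXTflex, 5 of the 7 members were also more than 5-fold different, against 72.0% of 364 starts (14.6% higher and 57.4% lower, median log2 ratio -3.48), 2 higher and 3 lower in liver. Of these, miR-100-5p passed the filter of 10 counts only through liver (0 counts in NF-HiSeq, 1424 in NF-HiSeq-ML). miR-10b-5p passed it only through MIN6 cells (196.5 and 4.5 counts). miR-10a-5p was 12.5-fold higher in liver, and miR-100-5p, with 0 counts in NF-HiSeq, was at least 843-fold higher when NF-HiSeq is set at 3 counts. This bound covers counting error only, in a library with few distinct alignments. miR-99b-5p was 9.42-fold lower, miR-125a-5p 5.69-fold lower and miR-10b-5p 6.62-fold lower. miR-99a-5p (4.2-fold) and miR-125b-5p (3.27-fold) were higher but within 5-fold. With 5 RPMM added, miR-10b-5p was no longer past 5-fold (log2 ratio -1.26, against -2.73 with 1 RPMM and -4.24 with 0.1 RPMM), which left 4 members. Without miR-122-5p, miR-7a-5p and miR-375-3p in the library sizes the count was again 5, against 73.1% of the 364 starts. Under that scaling miR-99a-5p (6.2-fold higher) was past 5-fold and miR-125a-5p (ratio 0.258) was not. With exact alignments alone the log2 ratio of miR-99a-5p was 1.28, against 2.07 with all alignments. The direction between the tissues was therefore opposite by the 2 kits for miR-10b-5p, higher in liver by TruSeq and lower by NEXTflex, and the same for the other 6 miRNAs.

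**Figure D4:**
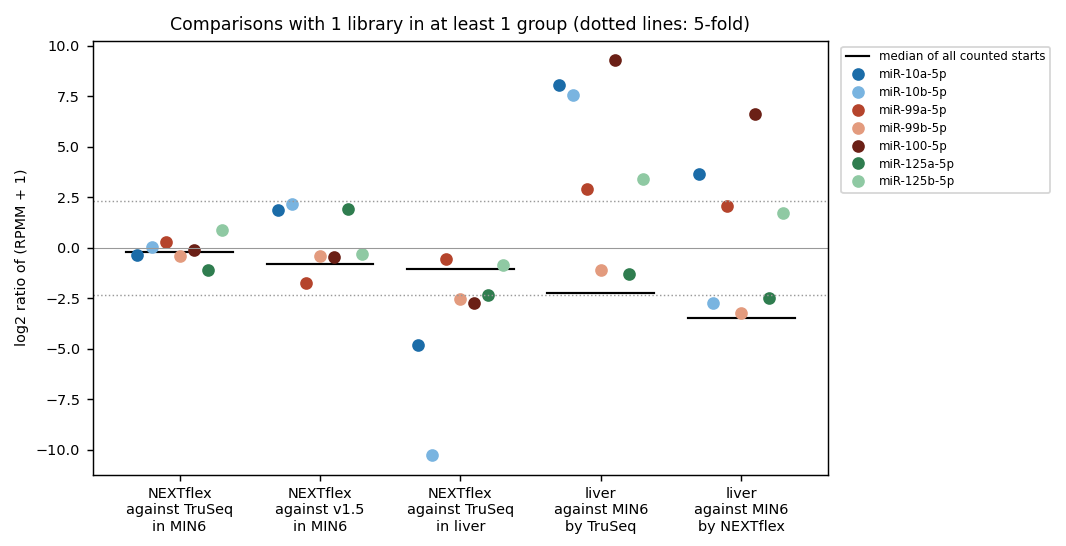
Log2 ratio of RPMM + 1 for each of the 7 miRNAs in the 5 comparisons with 1 library in at least 1 group; dotted lines mark 5-fold and black bars the median of all counted starts. miR-10b-5p lies at -10.25 for NEXTflex against TruSeq in liver and near 0 (0.02) for the same kits in MIN6 cells.

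Reads of miR-10a-5p began at 2 places. Besides the annotated start, a start 1 nt downstream held 26.5% ± 0.551 of the reads within 2 nt of the start in the TS-GAIIx libraries and 32.6% ± 4.72 in v1.5 (SD, n = 3 each). The 3 TruSeq values (25.9% to 26.9%) lay below the 3 v1.5 values (28.4% to 37.7%), which rest on 63 to 72 shifted counts. The 95% Wilson intervals of v1.5 libraries 1 (23.2% to 34.2%) and 2 (25.9% to 37.9%) overlapped those by TruSeq (22.5% to 30.6%). That of v1.5 library 3 (30.7% to 45.3%) did not. As levels, 90.1% of the 355 starts tested also did not overlap, and this difference in share was not tested. In liver the share was 26.3% by TruSeq and 31.1% by NEXTflex. In NF-HiSeq it was 0 of 1225.5 counts, with a 95% Wilson upper bound of 0.312%. That bound covers counting error only and treats each count as a separate molecule, while 92.8% of these counts were 1 form. NF-HiSeq had 9824 distinct alignments per 1000000 counts, against 65630 to 143744 in the TruSeq and v1.5 libraries. The shifted form carries another seed, shown in capitals.
miR-10a-5p, start 1 nt downstream: aCCCUGUAgauccgaauuugug
The same shift made up 11.6% of miR-10b-5p and 10.2% of miR-125b-5p in TS-HiSeq-ML. For miR-125b-5p it was 6.55% to 8.83% by TruSeq and 3.1% to 4.07% by v1.5 in MIN6 cells, and 0.0181% in NF-HiSeq. Reads of miR-99a-5p, miR-99b-5p, miR-100-5p and miR-125a-5p began at the annotated base in at least 97.9% of counts in each library with 20 counts or more.

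Read length differed between kits and tissues. The commonest read of miR-10a-5p had 22 nt in every library, 1 nt shorter than the RefSeq sequence, and this was also so for miR-10b-5p in the TS-GAIIx and TS-HiSeq-ML libraries. In NF-HiSeq, 191 of the 196.5 counts of miR-10b-5p (97.2%) were 1 form of 23 nt, and 92.8% of miR-10a-5p was 1 form of 22 nt. For miR-125a-5p, reads of 24 nt were 71.8% to 72.8% by TruSeq and 43.9% to 44.9% by v1.5 in MIN6 cells, and reads of 23 nt were 4.7% to 5.03% and 39% to 40.4%. In TS-HiSeq-ML the commonest length was 22 nt (54.8%) and in NF-HiSeq-ML 23 nt (43.1%). For miR-99a-5p in MIN6 cells, 22 nt was commonest by TruSeq (72.9% to 74.5%) and 21 nt by v1.5 (61.4% to 63.2%). In TruSeq liver 41% had 22 nt and 36.3% had 21 nt.

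**Figure D5:**
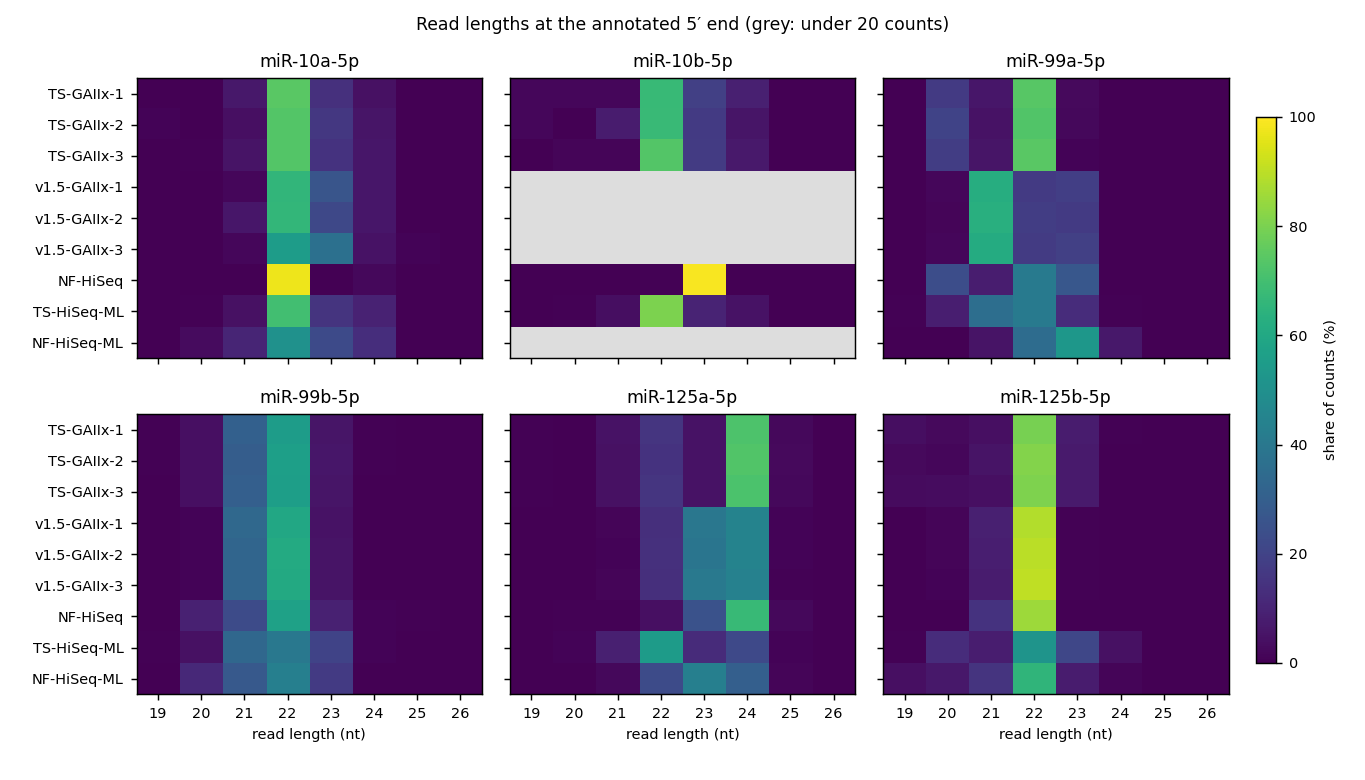
Share of counts (percent, color) at each read length from 19 to 26 nt, at the annotated start of 6 members, for each library; grey marks libraries with under 20 counts. In NF-HiSeq nearly all miR-10b-5p counts are at 23 nt, and miR-125a-5p goes from 24 nt by TruSeq in MIN6 cells to 22 nt in TruSeq liver.

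Bases at the 3′ end that the genome does not hold varied as well. An added A or U is a common end modification of miRNAs. In miR-99a-5p of MIN6 cells, such A ends were 0% in all 3 TS-GAIIx libraries, 8.63% ± 0.38 by v1.5 (SD, n = 3) and 26.9% in NF-HiSeq. In liver, A ends of miR-99a-5p made up 5.76% and U ends 0.781% by TruSeq, against 28.7% and 22.1% by NEXTflex. miR-100-5p in liver had A ends in 19.4% and U ends in 2.8% of counts by TruSeq, and 21% and 36.2% by NEXTflex. miR-99b-5p had A ends in 6.24% ± 0.17 and U ends in 0.343% ± 0.04 of counts by TruSeq, and 2.31% ± 0.21 and 2.93% ± 0.10 by v1.5. A single G at the 3′ end that the genome does not hold, mostly in place of the last A, was read in 9.91% ± 0.26 of miR-125a-5p and 8.94% ± 0.93 of miR-125b-5p counts by TruSeq in MIN6 cells, in 0.0814% and 0.0291% by v1.5 and in 0.0229% and 0.0363% in NF-HiSeq. Trimming of the adapters differed between the kits, and its part in these end forms was not tested.

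Some reads could not be assigned between paralogs. miR-10a-5p and miR-10b-5p differ at base 12, and reads with a mismatch there may come from either. Such reads were 0 to 0.5 counts of miR-10b-5p in each MIN6 library and 27 of 26414.5 counts in TS-HiSeq-ML, of which some were divided between places. In NF-HiSeq-ML they were 3.5 of its 4.5 counts, and 1 count was exact. The hairpins of miR-99a and miR-100 show a second case, with the mature miRNA in capitals (RefSeq GRCm38.p6, chr16:77598936-77599000 and chr9:41531425-41531504, plus strand).
Mir99a: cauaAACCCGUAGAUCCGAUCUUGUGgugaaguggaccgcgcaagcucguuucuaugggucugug
Mir100: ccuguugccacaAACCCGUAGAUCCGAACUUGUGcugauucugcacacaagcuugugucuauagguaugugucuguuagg
The base after the mature miRNA is G in Mir99a and C in Mir100. A read of miR-100-5p with an added G has 1 mismatch at either place, and 101.5 counts in TS-HiSeq-ML were divided to each. Together with other divided reads they were 103 of the 4356 counts of miR-99a-5p in TruSeq liver.

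The let-7 miRNAs of the 3 clusters were higher by v1.5 than by TruSeq in MIN6 cells. let-7e-5p, which lies between miR-99b and miR-125a, was at 1355 ± 25.3 and 4127 ± 52.9 RPMM (SD, n = 3 each), a log2 difference of 1.61 (edgeR adjusted p = 3.28e-11), where miR-99b-5p was not called and miR-125a-5p was lower. let-7c-5p and let-7a-5p, each summed over copies in several places, had log2 differences of 1.88 and 2.76. In liver let-7e-5p was at 239.1 RPMM by TruSeq and 1095 RPMM by NEXTflex, 4.57-fold higher by NEXTflex. The Hox-linked miR-196a-5p, miR-196b-5p and miR-615-3p were not placed here.

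By Pearson's r of log2(RPMM + 1) over the 9 libraries, the miRNAs most like the summed miR-10 group were miR-192-5p starting 1 nt upstream (0.979) and miR-92a-3p (0.977). Those most like the miR-99/100 group were miR-350-5p (0.985) and miR-411-5p starting 1 nt upstream (0.98), and those most like the miR-125 group were miR-26a-5p (0.961) and miR-181a-5p (0.946). Over the 7 libraries without NEXTflex these were 0.991, 0.992, 0.805, 0.804, 0.983 and 0.956. The points share kits and tissues, so these values are a description.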

How the data were processed

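Small RNA-seq of 9 libraries was used. Per the submitters' processing notes, reads were trimmed with cutadapt and aligned to mm9 with Bowtie. Per the methods, for NEXTflex the outer 4 bases at each end were removed. The authors deposited an expected count for each alignment, with reads of several places divided among them. The sums of these counts exceeded the mapped reads of the study by 0.264% to 8.41%. Here the counts of alignments that share a 5′ end were added up and scaled to the study's mapped reads (RPMM). Starts were named by equality with its tables (relative tolerance 3e-05). Where a table lists 0, any value under 2 RPMM was accepted. All 358 and 178 entries were placed, 13 and 4 at several positions. PCR reads carry no molecular identifiers here. Intervals are at 95% and, like floors of 3 counts, cover counting error only.

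Counts were rounded and tested with edgeR 4.0.16 (quasi-likelihood) in R 4.3.3, on miRNAs with at least 10 counts in 3 of 6 libraries. As a check of the code only, the test was also run on simulated counts with known changes, and its outcome is not given here. Comparisons with a single library used ratios of means after 1 RPMM was added, and those over 5-fold were counted among starts with 10 counts in a library. Paralog ratios were compared by exact permutation. Pairs of replicates differed by more than sampling noise (chi-square per degree of freedom 36.7 to 130). DESeq2 1.42.0 was an alternative. Ratios, intervals and exact tests were computed in Python 3.11.15 (SciPy 1.17.1, with pandas 2.3.3 on numpy 2.4.6), and plots were drawn with matplotlib 3.10.9.

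Named were the 7 members, the let-7 and Hox-linked neighbors, the other arms and the 2 miRNAs most alike per group. The members and lists were chosen with earlier results of these data known. TruSeq MIN6 libraries on the HiSeq were not analysed here. The smallest p of the exact tests was 0.1.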

Additional observations from a re-analysis of the deposited data

Results flagged for a closer look

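The direction of liver against MIN6 cells was opposite by the 2 kits for miR-10b-5p. The log2 ratio was -2.73 by NEXTflex and 7.55 by TruSeq, a difference of -10.28. With 1 liver library per kit the difference was not tested, and miR-10b-5p had 4.5 counts in NF-HiSeq-ML.

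NEXTflex against TruSeq was opposite in liver and in MIN6 cells for 2 members. For miR-125b-5p the log2 ratio was -0.84 in liver and 0.89 in MIN6 cells, a difference of -1.73. For miR-99a-5p it was -0.55 and 0.31, a difference of -0.86. These differences were not tested. With exact alignments alone miR-99a-5p was lower by NEXTflex in both, with log2 ratios of -1.6 in liver and -0.11 in MIN6 cells. Both members were higher by NEXTflex in liver as well (ratios of 1.18 and 1.44) when miR-122-5p, miR-7a-5p and miR-375-3p were left out of the library sizes, an alternative chosen after seeing the data.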

How the results depend on the processing

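With v1.5 against TruSeq, 5 members were called with mapped reads, the sum of all counts, exact alignments, starts within 2 nt summed, separate copies, DESeq2's Wald test and no filter, and 6 with TMM factors, DESeq2 size factors or the sum of named miRNAs. Of all 355 starts, 319 were called with mapped reads, 333 with TMM factors, 332 with DESeq2 size factors and 323 with the sum of named miRNAs. With at least 100 RPMM required, 3 were called, since the miR-10 members were then not tested. Of all starts, 261 of 274 were then called. Leaving out each library in turn gave 5 to 5. The log2 difference of miR-99b-5p was -0.37 with TMM, -0.32 with DESeq2 size factors and -0.13 with the sum of named miRNAs, and -0.05 to 0.05 with 1 library left out. With the replicate number as a block, 5 members were called. Deviations of same-numbered libraries correlated at 0.111, 0.019 and 0.21, and TruSeq library 2 correlated best with another number (0.051), so the numbers were not taken to pair the libraries. Against v1.5, NEXTflex had 1 member over 5-fold with 0.1 RPMM added and 2 without the reads of miR-122-5p, miR-7a-5p and miR-375-3p. In liver, NEXTflex against TruSeq had 2 without these reads and 4 with the sum of all counts or exact alignments, where miR-125a-5p was lost. Liver against MIN6 cells by NEXTflex had 4 with 5 RPMM added, where miR-10b-5p was lost. The added alternative was chosen after seeing the data, and the cause was not tested. Exact alignments also turned the log2 ratio of miR-99a-5p for NEXTflex against TruSeq in MIN6 cells to -0.11, and the added alternative turned those of miR-99b-5p and miR-125b-5p against v1.5 to 0.02 and 0.09. The log2 change of the miR-10a-5p to miR-10b-5p ratio was -0.14 with 1 RPMM added. Few counts limit the precision of miR-100-5p in MIN6 cells and of miR-10b-5p by v1.5 and in NF-HiSeq-ML (0 to 14 counts).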
